A study of Mus musculus with 6 samples.

Results

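Collagen chain genes, from the stromal fibrillar chains to the chains of the muscle fibre's own basement membrane, were followed in chromatin accessibility (ATAC-seq) libraries of sorted mouse muscle nuclei. The members were all rows of the start-site window table whose symbol is Col, a number, the letter a and a number, and 43 of 49366 rows were of this kind. The rows were taken by name alone, with no filter on their values, but the gene family was chosen with earlier results of these data known. The annotation holds 44 such genes, and Col4a4 was not analysed here. The samples were gastrocnemius and tibialis anterior muscles of male C57BL/6J mice, injected at 8 weeks of age and collected 28 days later, with AAV6:LacZ-shRNA (the control, 3 samples) on the side opposite to AAV6:Yap-shRNA (3 samples). Each sample was a pool of 4 gastrocnemius and 4 tibialis anterior muscles, and every library, control included, came from vector-injected muscle. Nuclei were sorted for PCM1, a protein around the nucleus that is used to mark muscle fibre nuclei, so the libraries are meant to hold myonuclei and few of the fibroblasts that make most muscle collagen. The series text names cardiomyocytes, while all 6 sample labels name skeletal muscle. The shRNA acts on the Yap transcript, so accessibility does not check the knockdown. Nothing links the numbers of the pools to the same mice, and p-values measure the spread between these pools.

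Collagens are extracellular proteins whose alpha chains wind around each other into helices before secretion. Fibrillar chains (types I, II, III, V, XI, XXIV and XXVII) build the fibres of tendon, perimysium and endomysium, and in muscle they are known as products of fibroblasts and tenocytes. Type IV chains form the sheet of the basement membrane around each muscle fibre, capillary and nerve, and the multiplexins Col15a1 and Col18a1 sit at its edge. Type VI forms beaded filaments that tie that membrane to the stroma, and its loss causes muscular dystrophy. The FACIT chains decorate fibrils, with Col22a1 known at the junction of muscle and tendon, while the transmembrane chains Col13a1 and Col25a1 are known for roles in the contact of motor nerve and muscle. Yap is a coactivator that works through TEAD factors at ACATTCC-like sites, and collagen and other matrix genes are often studied as its downstream genes in fibroblasts.

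A window is the sum of reads within 1 kb of all annotated transcript starts of a gene, so genes with more starts have longer windows. The 43 windows held 1 to 13 starts and 2001 to 14144 bp, and member counts ran from 17 to 1282 per library. Values are counts scaled to library size with TMM factors (CPM), and levels of different genes are compared only as CPM per kb of window. The windows of 12 members overlap the window of another gene. Reads under both windows were not reliably counted, so the level was taken over the unshared length and the level of those members is less certain. Library totals over all windows ran from 3326803 to 10319467, lowest in LacZ-shRNA replicate 2 and next in LacZ-shRNA replicate 1 (5431766), and these totals limit the precision of the control group. LacZ-shRNA replicate 1 also stood apart in closed chromatin. The median of 1102 olfactory receptor windows, genes that are silent in muscle, was 4.29 CPM per kb in that library and 2.72 to 3.15 in the other 5. The labelled tissue was visible in the data: the 13 muscle fibre markers had a median of 29.0 CPM per kb in LacZ-shRNA, a median percentile of 99.5 among all windows, against 5.72 for 12 fibroblast markers and 5.62 for 9 endothelial markers.

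The sequences shown first are the 100 bases before the start of the chains with the lowest p-value in each direction, and of Col3a1, the other chain with an unadjusted p under 0.05. The windows of these chains sum reads over several starts, so no difference is placed within these bases. The start is that of the RefSeq promoter table for Col3a1 and the GENCODE 5′ end for Col1a1 and Col22a1, and the letters are those of the RefSeq GRCm38.p6 genome. Capitals mark CCAAT or GGGCGG on either strand, motifs of widely used promoter factors. Col1a1 (ENSMUSG00000001506) lies at chr11:94936124-94936223 on the plus strand, Col3a1 (ENSMUSG00000026043) at chr1:45311438-45311537 on the plus strand and Col22a1 (ENSMUSG00000079022) at chr15:72034228-72034327 on the minus strand.
Col1a1: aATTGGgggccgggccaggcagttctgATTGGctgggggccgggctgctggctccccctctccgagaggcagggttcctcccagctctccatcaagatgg
Col3a1: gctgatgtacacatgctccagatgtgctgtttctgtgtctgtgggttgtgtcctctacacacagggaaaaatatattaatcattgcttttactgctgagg
Col22a1: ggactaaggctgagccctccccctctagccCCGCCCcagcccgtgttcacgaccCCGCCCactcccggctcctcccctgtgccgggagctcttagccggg
The 3 stretches are 67%, 43% and 73% G or C. In the RefSeq promoter table, 250 bases before to 50 after a start, 34 members were found, with a median of 60.0% G or C against 52.7% over all 27025 promoters. GGGCGG was held by 22 of the 34 (64.7%), against 35.9% of all promoters and 48.0% of 16522 protein-coding ones. CCAAT was held by 35.3% (37.9% of all), TATAAA by 14.7% (14.2% of all) and ACATTCC, the TEAD motif, by 2.94% (3.85% of all), which was Col3a1 alone. These matches describe letters and not binding.

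Most collagen windows in myonuclei held no called peak, while their median level was close to that of protein-coding windows. The median collagen window held 6.35 CPM per kb in LacZ-shRNA, beside 4.95 for all windows, 6.43 for protein-coding windows and 3.29 for olfactory receptor windows. The median percentile of the members among all windows was 69.8. No more than 3 members exceeded 10 CPM per kb, and 40 of 43 stayed under it. The lowest of these 3, Col13a1 at 10.06, was at percentile 90.3 of all windows, so few of all windows exceeded that level either. A called peak lay inside 9 of 43 windows (20.9%), beside 26.3% of all windows and 51.8% of protein-coding windows. At the annotated 5′ end of the gene, the shares were 18.6%, 24.5% and 47.7%.

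**Figure D1:**
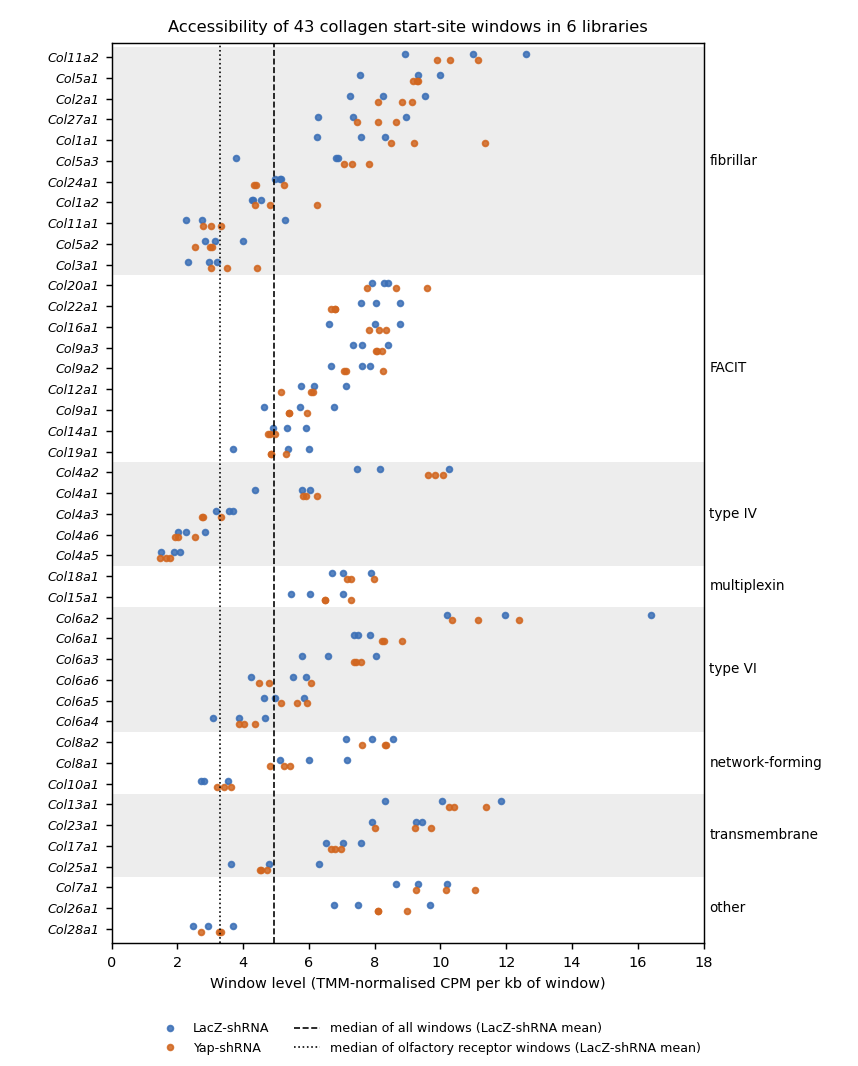
Window level of each of the 43 collagen genes (x axis, TMM-normalised CPM per kb of window) in the 6 libraries, grouped by class, with LacZ-shRNA in blue and Yap-shRNA in orange. The dashed line is the median of all windows, 4.95, and the dotted line that of olfactory receptor windows, 3.29. The LacZ-shRNA means of Col4a5, Col4a6, Col3a1, Col10a1 and Col28a1 lie below the dotted line. Those of Col5a2, Col11a1 and Col4a3 lie just above it, and Col6a2 reaches the highest value.

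The highest levels belonged to Col6a2, a chain of the type VI filament, at 12.85 ± 3.19 CPM per kb (SD, n = 3), to Col11a2, a fibrillar chain of cartilage, at 10.8 ± 1.85, and to Col13a1, the transmembrane chain of the nerve and muscle contact, at 10.1 ± 1.76. The gap between Col11a2 and Col13a1 was smaller than the SD of either, and the gap between Col6a2 and Col11a2 was smaller than the SD of Col6a2 but not that of Col11a2. All 3 have a peak in the window. The lowest levels were those of the X-linked basement membrane chains Col4a5 (1.82 ± 0.292) and Col4a6 (2.37 ± 0.424), which start close to each other and are read in opposite directions, and of Col3a1 (2.83 ± 0.457). The gap between Col4a5 and Col4a6 was larger than the SD of either, but their windows overlap each other, so their order is uncertain. Male nuclei carry a lone X chromosome, and the median of 829 protein-coding windows on X was 2.67 CPM per kb against 6.56 for 19626 on autosomes. Levels below the olfactory receptor median are therefore not directly comparable between Col4a5 and an autosomal chain.

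Stromal chains were not uniformly closed and not uniformly open. Col1a1, which encodes the main chain of type I collagen, held 7.39 ± 1.04 CPM per kb (SD, n = 3), at percentile 78.8 of all windows. Its partner Col1a2 held 4.37 ± 0.140, at percentile 39.0. Col3a1, the chain of reticular fibres, was at percentile 11.4, and its neighbour on chromosome 1, Col5a2, a chain that nucleates fibrils, was at 3.32 ± 0.612. These last levels are close to that of silent olfactory receptor windows. Col5a1, the partner of Col5a2, was at 8.95 ± 1.25, higher than Col1a1 in LacZ-shRNA by more than either SD. In Yap-shRNA the order turned, with Col5a1 at 9.26 and Col1a1 at 9.69. The Col5a1 window overlaps that of another gene, with 2628 of its 4002 bp unshared, so its place above Col1a1 is uncertain. The windows of Col1a2 and Col3a1 also overlap others. None of Col1a1, Col1a2, Col3a1 or Col5a2 had a called peak in its window. Among the 11 fibrillar windows only that of Col11a2 had a peak, and the class median was 5.84 CPM per kb.

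Basement membrane chains were divided by gene pair. Col4a1 and Col4a2, the ubiquitous chains, start 21 bp apart in opposite directions and share a promoter peak at chr8:11312024-11313312, with 21.9, 22.9 and 24.7 CPM in LacZ-shRNA and 24.2, 27.8 and 27.3 in Yap-shRNA. Their windows held 5.40 ± 0.901 and 8.62 ± 1.45 CPM per kb (SD, n = 3), and since each overlaps the other, these levels are uncertain. Col4a3, a chain of kidney and lung basement membranes, was at 3.48 ± 0.278 and had no peak in its window. The multiplexins had no peak at their starts either, with Col18a1, the source of endostatin, at 7.21 ± 0.600 and Col15a1 at 6.18 ± 0.807.

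Among the type VI chains, Col6a1 and Col6a2 are neighbours on chromosome 10. Col6a1 held 7.57 ± 0.244 CPM per kb, at percentile 80.1, without a peak, while Col6a2 had a promoter peak. Col6a3, the longest chain of the same filament, was at 6.80 ± 1.15 and had no peak in its window. In the chains known from junctions, Col22a1 was at 8.13 ± 0.601 with a peak at the 5′ end, Col19a1 at 5.02 ± 1.19 with a peak at the 5′ end, and Col25a1 at 4.91 ± 1.34 with none. The FACIT median of 7.39 and the transmembrane median of 7.96 were both above the fibrillar median, although in the Yap-shRNA samples the fibrillar median (7.40) was above that of the FACIT chains (6.75), and the type IV median of 3.48 was the lowest of the 8 classes. With 2 to 11 genes per class and 5 of type IV, 2 of them on X, these medians are descriptions. All 5 type IV windows overlap the window of another gene, so the type IV median is less certain.

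Over the whole loci, peaks were found at 25 of the 43 loci, counted over the gene body and 5 kb before its 5′ end. No share over all genes is given for this rule, so the count has no background beside it. The 59 peaks make 60 links to genes, since the Col4a1/Col4a2 promoter peak counts for both. Of these links 42 are intronic, 7 exonic, 10 within 1 kb of a start of the gene and 1 in the upstream flank. The transmembrane chain Col23a1 had 8, Col19a1 had 7, and Col13a1 and Col4a2 had 5 each. Col5a1 held 4, all intronic. The 18 genes with no locus peak include Col1a1, Col1a2, Col3a1, Col5a2 and Col6a1, and also Col2a1, Col9a1, Col10a1 and Col17a1. The fibroblast chains of types I and III thus lacked called accessible regions in these nuclei within the span searched, as did these other chains. Peaks near Uqcrc1 at Col7a1 and near Phykpl at Col23a1 lie within 1 kb of a start of those other genes and may belong to them. Longer genes offer more room for peaks, which these counts do not adjust for.

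The main comparison asked whether the windows differed after Yap knockdown. None of the 43 windows had an adjusted p under 0.05 over all windows by edgeR's quasi-likelihood test, nor did any by the likelihood-ratio test, limma voom or, among those given an adjusted p, DESeq2. The smallest adjusted p among them was 0.946, and 0.0223% of all windows (11 of 49366) passed. An unadjusted p under 0.05 was found for 2 members, Col1a1 and Col3a1, both higher in Yap-shRNA, beside 4.9% of all windows. The groups did not overlap in 4 members, with Col1a1, Col5a3 and Col6a1 higher and Col22a1 lower in Yap-shRNA, beside 10.1% of all windows. Neither count exceeds its background. The median log2 fold change of Yap-shRNA over LacZ-shRNA was 0.03 over the members and -0.01 over all windows, with 26 members positive and 17 negative and a range from -0.26 to 0.39. For 32 members the whole 95% interval lay within 0.5 of 0 on either side, so larger changes lie outside the interval for most chains and inside it for the other 11.

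**Figure D2:**
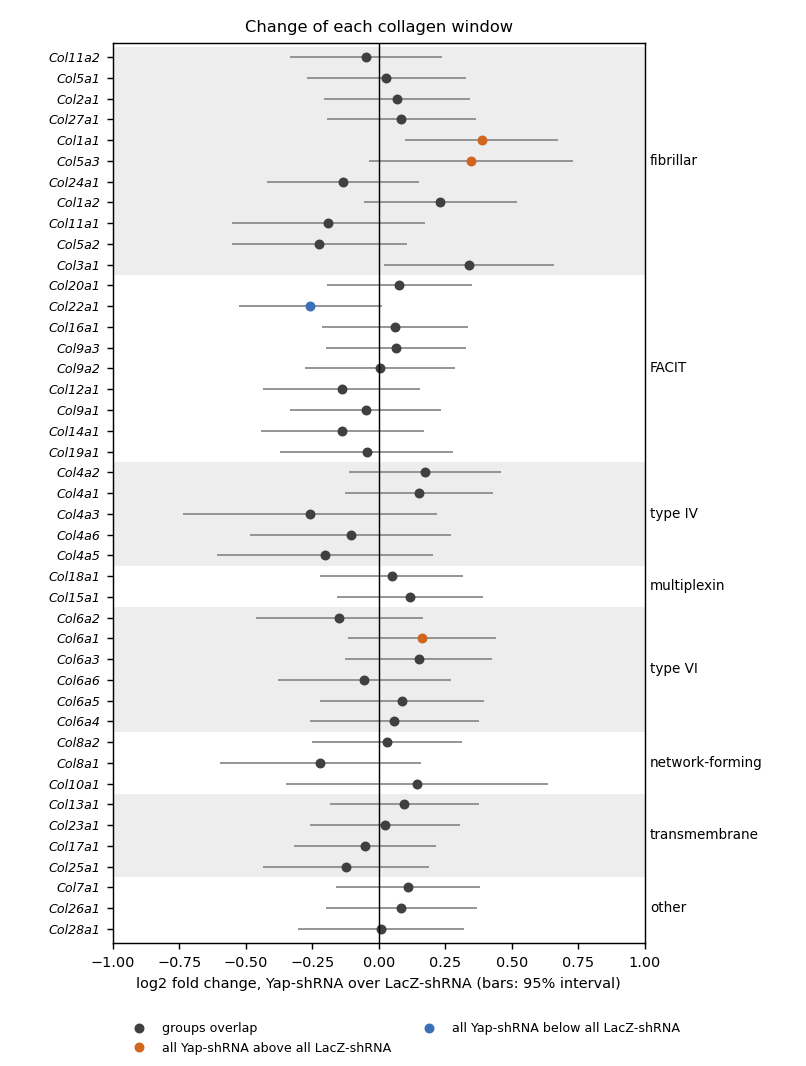
log2 fold change of each collagen window (x axis, Yap-shRNA over LacZ-shRNA, n = 3 per group) with the 95% interval of the edgeR quasi-likelihood fit as bars. Orange and blue points are the windows in which all Yap-shRNA libraries lay above or below all LacZ-shRNA libraries; the intervals of Col1a1 and Col3a1 alone lie to the right of 0 and none lies wholly to the left.

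Col1a1 and Col3a1, chains that fibroblasts make, had the lowest p-values among the members on the higher side. Col1a1 held 42.5, 51.6 and 56.4 CPM in LacZ-shRNA and 77.1, 57.7 and 62.5 in Yap-shRNA. All 3 Yap-shRNA values lay above the control values, although Yap-shRNA replicate 2 exceeded LacZ-shRNA replicate 3 only slightly. The log2 fold change was 0.39 (SE 0.14, 95% interval 0.10 to 0.67), with an edgeR adjusted p of 0.946. Col3a1 held 24.8, 17.9 and 22.8 CPM in LacZ-shRNA and 34.1, 23.2 and 27.1 in Yap-shRNA. Its groups overlapped, and its log2 fold change was 0.34 (adjusted p 0.946 in edgeR, SE 0.16). Col1a2 held 40.7, 38.4 and 38.6 CPM against 56.0, 39.2 and 43.2, a log2 fold change of 0.23 (adjusted p 0.946 in edgeR, SE 0.14). Yap-shRNA replicate 1 was the highest library for all 3 of these genes and, among the other 40, for Col6a5 alone. Leaving that library out gave the lowest log2 fold change of the 6 omissions for Col1a1 and Col3a1, 0.26 and 0.18, and for Col1a2, 0.07. For Col1a1, leaving out LacZ-shRNA replicate 1, its lowest library, gave nearly the same value, 0.27.

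The summed level of the fibroblast markers was not highest in that library, although that of Fn1 was, at 74.3 CPM against 42.0 to 73.3 in the others. The summed level of the 12 fibroblast markers was 346, 293 and 317 CPM in LacZ-shRNA and 327, 329 and 316 in Yap-shRNA, with no marker at 0 in any library. The median fibroblast marker in Yap-shRNA replicate 1 stood at 0.955 of its LacZ-shRNA mean, while Col1a1 stood at 1.54, Col3a1 at 1.56 and Col1a2 at 1.43. LacZ-shRNA replicate 1, the library with the highest marker sum, is part of that mean. The 3 chains were set beside the list because Yap-shRNA replicate 1 was their highest library. The summed level of the 6 tenocyte markers was 110, 145 and 135 CPM against 132, 137 and 136. In sorted pools, a change in the share of a minor cell type and a change per nucleus cannot be told apart.

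The other fibrillar chains gave differences of both signs. Col5a3, a minor chain of type V fibrils, held 7.60, 13.8 and 13.7 CPM in LacZ-shRNA and 14.2, 15.6 and 14.6 in Yap-shRNA, a log2 fold change of 0.35 (adjusted p 0.946 in edgeR, SE 0.19). The low value of LacZ-shRNA replicate 1 made most of this difference, and without that library it was 0.11. Col5a2 held 24.1, 16.98 and 18.8 CPM against 18.03, 18.2 and 15.3, a log2 fold change of -0.22 (adjusted p 0.949 in edgeR, SE 0.16) with overlapping groups. Col11a1, a nucleating chain of cartilage, held 53.4, 22.7 and 27.7 CPM against 33.5, 30.5 and 28.2, so a lone control library exceeded the other 5. Its log2 fold change was -0.19 (SE 0.18) and turned to 0.25 without LacZ-shRNA replicate 1. Col5a1 was level, with 26.2, 19.9 and 24.5 CPM against 24.4, 24.5 and 24.1 and a log2 fold change of 0.03 (SE 0.15).

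**Figure D3:**
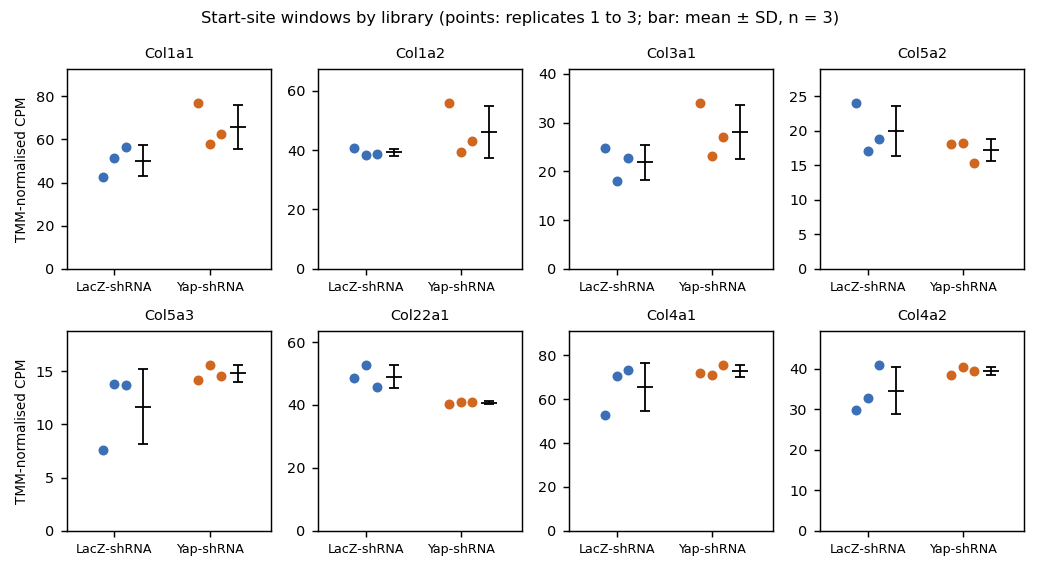
TMM-normalised CPM (y axis, from 0) of 8 collagen windows in each library, with replicates 1 to 3 as points from left to right and the mean ± SD (n = 3) as bars. Col1a1 and Col22a1 are separated between groups in opposite directions, Yap-shRNA replicate 1 is highest for Col1a1, Col1a2 and Col3a1, and Col5a3 rests on the low first control library.

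The basement membrane chains gave small differences of mixed sign. Col4a1 held 53.0, 70.5 and 73.1 CPM in LacZ-shRNA and 71.8, 70.9 and 75.8 in Yap-shRNA, a log2 fold change of 0.15 (SE 0.14, 95% interval -0.13 to 0.43). Col4a2 held 29.8, 32.7 and 41.0 against 38.5, 40.3 and 39.4, a log2 fold change of 0.17 (SE 0.14, 95% interval -0.11 to 0.46). In both genes the groups overlapped and LacZ-shRNA replicate 1 was the lowest library. Without that library the log2 fold changes were 0.012 and 0.055, and without LacZ-shRNA replicate 3 that of Col4a2 was 0.34. Col4a3 held 7.60, 6.73 and 7.86 CPM against 5.91, 5.87 and 7.07, and at these low counts its log2 fold change of -0.26 carried an SE of 0.24. The X-linked chains gave -0.20 (Col4a5, SE 0.20) and -0.11 (Col4a6, SE 0.19). Col15a1 and Col18a1 gave 0.12 (SE 0.14) and 0.05 (SE 0.13). All 7 chains had overlapping groups, and the smallest adjusted p in edgeR was 0.951 in type IV and 0.959 in the multiplexins.

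Col22a1, the chain of the junction of muscle and tendon, was the member with the lowest p-value on the lower side. It held 48.5, 52.9 and 45.7 CPM in LacZ-shRNA and 40.2, 41.0 and 40.9 in Yap-shRNA. The Yap-shRNA libraries lay close together and below all 3 control libraries. The log2 fold change was -0.26 (adjusted p 0.946 in edgeR, SE 0.13, 95% interval -0.53 to 0.01), and it stayed between -0.31 and -0.21 when any library was left out. The promoter peak of Col22a1 at chr15:72033943-72034588, which spans the sequence shown above, held 13.4, 20.8 and 16.4 CPM against 13.1, 16.7 and 13.1, and in this separate count table of the same libraries the groups overlapped (log2 fold change -0.20, SE 0.19). Col8a1, a chain of vessel and corneal membranes, held 10.4 to 14.5 CPM in LacZ-shRNA against 9.74 to 10.999 in Yap-shRNA, a log2 fold change of -0.22 (SE 0.19).

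The remaining chains that touch muscle fibres or nerve differed little. Col6a1 held 30.0, 31.4 and 29.5 CPM in LacZ-shRNA and 32.9, 35.4 and 33.1 in Yap-shRNA, groups that do not overlap, with a log2 fold change of 0.16 (adjusted p 0.951 in edgeR, SE 0.14). Col6a3 gave 0.15 (SE 0.14) and Col6a2 gave -0.15 (SE 0.15), so chains of the same filament pointed in different directions within their errors. Col13a1 gave 0.10 (SE 0.14), Col19a1 -0.04 (SE 0.16) and Col25a1 -0.12 (SE 0.15), each with overlapping groups. Col25a1 and Col19a1, like Col11a1, had their highest value in LacZ-shRNA replicate 1, at 37.8 CPM for Col25a1 beside 21.8 to 28.8 in the other 5 libraries.

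Among the members, the difference between LacZ-shRNA replicate 1 and LacZ-shRNA replicates 2 and 3 varied with the base composition of the window. In LacZ-shRNA replicate 1, 15 of the 21 members with windows under the median G or C share (50.3%) were higher than in the mean of LacZ-shRNA replicates 2 and 3, against 2 of the 22 at or over it. The median ratio was 1.195 in the first set and 0.856 in the second. The median log2 fold change after Yap knockdown was -0.11 in the first set and 0.07 in the second, and 0.04 and 0.01 without LacZ-shRNA replicate 1. This division of the members was made after the values were seen and has no test. The base composition of the reads was not measured, and the cause of the difference was not tested.

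The peaks of the collagen loci showed few differences, and those with the lowest p-values lay inside introns. By edgeR's quasi-likelihood test, limma voom and (among those given an adjusted p) DESeq2 none of the 59 passed the threshold, and by the likelihood-ratio test 2 did. By the first test, 0.618% of all peaks (223 of 36097) passed, and by the likelihood-ratio test 1.05% (378). An unadjusted p under 0.05 was found for 2 higher and 3 lower peaks, beside 8.9% of all peaks. The groups did not overlap in 3 higher and 3 lower peaks, beside 13.3% of all peaks. Neither share of the 59 exceeds its background. The median log2 fold change was -0.0040 over these peaks and -0.0026 over all peaks.

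The peak with the lowest p-value lies in an intron of Col4a1 at chr8:11253384-11254061, 58765 bp from the 5′ end and 7779 bp from the nearest annotated start of the gene. It held 6.85, 8.07 and 10.3 CPM in LacZ-shRNA and 15.1, 14.6 and 15.7 in Yap-shRNA. All 3 Yap-shRNA values exceeded all control values. The log2 fold change was 0.79 (SE 0.21), with an edgeR adjusted p of 0.0625 and a range of 0.0114 to 0.252 over the alternatives. It passed the threshold with library size alone, by the likelihood-ratio test and without LacZ-shRNA replicate 3. Its middle 200 bases, at chr8:11253623-11253822 on the plus strand, are shown because no other locus peak had a lower p-value, with an E-box (CAGCTG) in capitals.
Col4a1 intron: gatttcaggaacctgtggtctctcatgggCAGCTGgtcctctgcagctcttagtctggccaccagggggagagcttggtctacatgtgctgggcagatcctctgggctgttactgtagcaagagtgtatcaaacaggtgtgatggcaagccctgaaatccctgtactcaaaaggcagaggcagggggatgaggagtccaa
The peak holds no ACATTCC. The promoter peak that Col4a1 shares with Col4a2 gave 0.18 (SE 0.15) with overlapping groups, so the difference in the intron was not matched by one of that size at the start, although the 2 were not tested against each other.

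The lower peak with the lowest p-value lies in an intron of Col23a1. It held 26.0, 32.7 and 19.3 CPM in LacZ-shRNA and 14.1, 14.7 and 19.7 in Yap-shRNA, with LacZ-shRNA replicate 3 within the range of the Yap-shRNA libraries. The log2 fold change was -0.63 (adjusted p 0.0963 in edgeR, SE 0.18, range 0.0127 to 0.397 over the alternatives). It passed the threshold by the likelihood-ratio test, without LacZ-shRNA replicate 3 and without Yap-shRNA replicate 3. The Col4a6 intron peak at chrX:141276375-141276914 held 8.76, 10.2 and 6.78 CPM in LacZ-shRNA and 5.33, 5.70 and 5.13 in Yap-shRNA, groups that do not overlap (log2 fold change -0.61, adjusted p 0.496 in edgeR, SE 0.28).

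Several of the peaks with a low p-value hold repeats, as do other locus peaks. The reference sequence is soft-masked as repeat over 56.6% of the Col23a1 peak and 28.7% of the Col4a6 peak, against a median of 11.2% for the 59 peaks. Of all 59 locus peaks, 16 were masked over more than 50% of their length. The share was 97.4% for the Col28a1 intron peak at chr6:8165282-8165817 and 96.5% for the Col19a1 intron peak at chr1:24545242-24546427. The Col28a1 peak held 6.02, 6.79 and 2.65 CPM in LacZ-shRNA and 2.30, 2.50 and 2.98 in Yap-shRNA (log2 fold change -0.87, adjusted p 0.485 in edgeR, SE 0.39), and LacZ-shRNA replicate 3 was as low as the Yap-shRNA libraries. The Col19a1 peak was near the floor of the table, with 1.37, 0.425 and 1.47 CPM against 1.87, 2.64 and 2.81 (log2 fold change 0.98, adjusted p 0.557 in edgeR, SE 0.48). Of the 5 peaks with an unadjusted p under 0.05, the Col4a1 intron peak had the lowest masked share, 12.8%. Reads of repeats can come from other copies in the genome, and the part of repeats in these results was not tested.

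With 6.33% of its length masked, the Col15a1 intron peak at chr4:47293600-47294704 held 34.0, 28.0 and 30.1 CPM in LacZ-shRNA and 24.0, 26.8 and 25.1 in Yap-shRNA, a log2 fold change of -0.28 (adjusted p 0.571 in edgeR, SE 0.14) with groups that do not overlap. The Col6a6 intron peak at chr9:105819209-105819767 gave -0.65 (adjusted p 0.580 in edgeR, SE 0.33) with overlapping groups. On the higher side, a Col26a1 intron peak at chr5:136826698-136827857 gave 0.35 (SE 0.21), and Col13a1 peaks at chr10:61965012-61966203 and chr10:61877552-61878986 gave 0.23 (SE 0.14) and 0.22 (SE 0.14). The groups overlapped in these last 3 peaks. The other peaks with separate groups were in introns of Col27a1 (chr4:63307738-63309201, log2 fold change -0.22) and Col23a1 (chr11:51539448-51540180, 0.21).

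**Figure D4:**
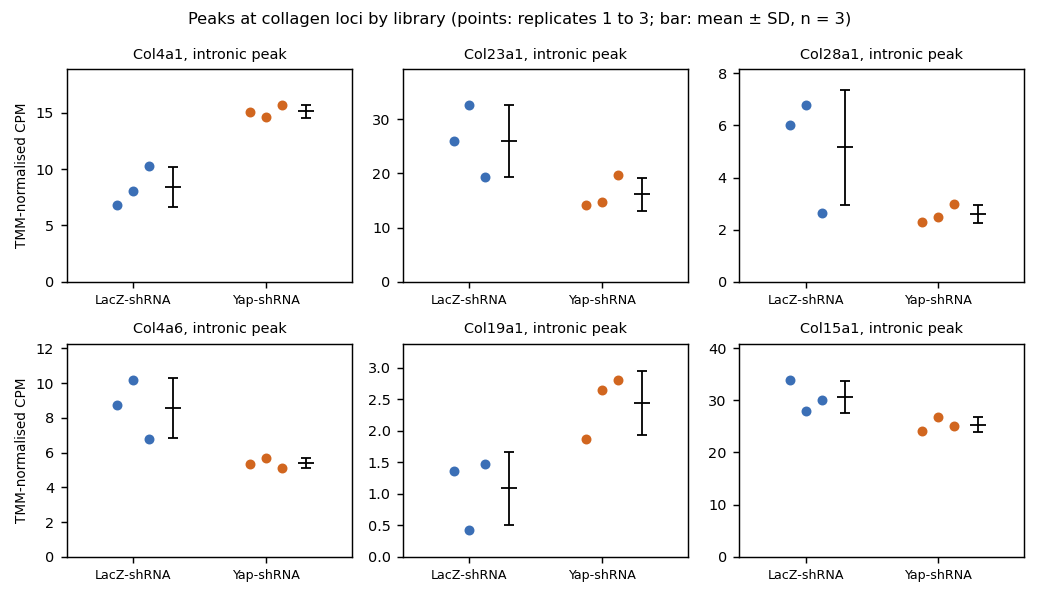
TMM-normalised CPM (y axis, from 0) of the 6 collagen locus peaks with the lowest p-values, with replicates 1 to 3 as points from left to right and the mean ± SD (n = 3) as bars. The Yap-shRNA libraries lie above the controls at the Col4a1 and Col19a1 peaks and below them at the Col4a6 and Col15a1 peaks, while the groups overlap at Col23a1 and Col28a1.

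The motif of the TEAD factors, through which Yap acts, was found at some of these peaks. ACATTCC, on either strand, was found in 13 of the 59 peaks (22.0%), at 10 genes, against 8.96% of all peaks, and the median widths were alike at 915 and 902 bp. Without the peaks near starts of Uqcrc1 and Phykpl the share was 19.3%. The E-box CAGCTG was found in 47.5% of these peaks and 40.3% of all, TGANTCA (AP-1) in 16.9% and 16.6%, and the MEF2 motif in 3.39% and 2.42%. No test of these shares was made, and peaks of the same gene are not independent. The 13 TEAD motif peaks had log2 fold changes from -0.26 to 0.55, 5 positive and 8 negative, with a median of -0.05. The groups separated in 0 of them, beside 13.3% of all peaks. An unadjusted edgeR p under 0.05 was found in 0, beside 8.9% of all peaks. With 13 peaks, counts of 0 cannot be told apart from these shares. Sites of chains described above are shown with 11 bases to either side and the motif in capitals. Among them is a tandem site at Col6a3, which overlaps an annotated exon that is not among the GENCODE exons of Col6a3.
Col4a2 intron, chr8:11348857-11348885, plus strand: cataccctgacACATTCCatttatagatg
Col4a2 intron, chr8:11418901-11418929, plus strand: ctttgacccacACATTCCctggtaccact
Col15a1 intron, chr4:47276678-47276706, plus strand: attctcagtaaACATTCCcagagccagct
Col5a1 intron, chr2:27953862-27953890, minus strand: ggtctgagtccACATTCCcaggtccacca
Col13a1 intron, chr10:61911788-61911816, plus strand: ttaacaaggtaACATTCCcctatttggct
Col23a1 promoter, chr11:51289507-51289535, plus strand: tctttccttccACATTCCtctcactagtt
Col6a3 intron peak, chr1:90838749-90838777, plus strand: gcaggtctctgACATTCCACATTCCctgt
The Col6a3 peak with the tandem site (chr1:90837735-90839020) held 32.0, 32.3 and 26.1 CPM in LacZ-shRNA and 28.1, 23.8 and 23.3 in Yap-shRNA, a log2 fold change of -0.24 (adjusted p 0.696 in edgeR, SE 0.15) with overlapping groups. The Col4a2 peaks gave -0.05 (SE 0.15) and -0.08 (SE 0.14), and the Col15a1 peak -0.17 (SE 0.16). The Col5a1 and Col13a1 peaks gave 0.23 (SE 0.18) and 0.11 (SE 0.21), and the Col23a1 promoter peak -0.01 (SE 0.14).

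The genes that make, break down, bind and surround collagen were read from the same window fit. Of 29 windows of collagen biosynthesis genes, which hydroxylate, fold, trim and crosslink the chains, 0 passed the threshold in edgeR, and 3 had an unadjusted p under 0.05, 1 higher and 2 lower, beside 4.9% of all windows. Their median level of 7.74 CPM per kb was above that of the collagens, and 62.1% had a peak in the window against 20.9%. The smallest p there was that of Adamts3, a protease that removes the propeptide of procollagen, with a log2 fold change of -0.33 (adjusted p 0.946 in edgeR, SE 0.15). Among 14 windows of breakdown genes the count passed was 0, and Mmp16 had the smallest p (-0.30, SE 0.16). Of 9 receptors none passed, and Ddr1, a receptor kinase for collagen, had the smallest p (-0.28, SE 0.13). Of 12 laminins, nidogens and other basement membrane partners none passed, and the smallest p belonged to Lamb1 (-0.12, SE 0.14). The median log2 fold changes of these lists were 0.02, 0.05, -0.02 and 0.05, beside -0.01 for all windows.

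The cell type markers also gave 0 calls in each of 8 lists in edgeR. Over the 127 genes of all 12 lists, 9 had an unadjusted p under 0.05, beside 4.9% of all windows, and limma voom and DESeq2 called 0 as well. The muscle fibre list had the lowest median log2 fold change, -0.10, with 11 of 13 negative, beside 26007 of all 49366 windows. None of its genes had separated groups or an unadjusted edgeR p under 0.05, and its smallest p was that of Mylpf (-0.28, SE 0.14). In the fibroblast list Pi16, a marker of fibroblasts around vessels, had the smallest p, with a log2 fold change of 0.42 (adjusted p 0.946 in edgeR, SE 0.15), and 5 of 12 members were positive. In the endothelial list Kdr, a receptor for VEGF, gave -0.59 (adjusted p 0.909 in edgeR, SE 0.17), the smallest p of any member of the 12 lists. The smallest p of the other lists belonged to Mkx (tenocyte, -0.20), Notch3 (mural, 0.24), Csf1r (leukocyte, 0.32), Calcr (satellite cell, -0.37) and Sox10 (Schwann cell, 0.13).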

How the data were processed

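Paired-end ATAC-seq reads were aligned by the authors to mouse GRCm38 (BWA 0.7.17), cleared of duplicates (SAMtools 1.8), used for peak calls (MACS 1.4.2-1, peaks of at least 2 samples kept) and counted over features (featureCounts 1.5.0). Both deposited tables, start-site windows and peaks, hold raw counts as whole numbers, and rows that averaged under 10 counts had been dropped. A mapping quality minimum for these tables is not given in the sources used here, and without it reads of repeats may be included. Transposase offsets cannot be examined in counts.

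All 49366 window identifiers matched GENCODE vM21, of the same build. Window extent was checked on the counts: peaks inside the window of 1 gene had at least 0.95 of their counts in that window in 99.99% of 6969 cases, against 56.1% of 757 inside the windows of 2 genes. The groups were compared over all rows by the quasi-likelihood test of edgeR 4.0.16 (R 4.3.3), with TMM factors, groups only and Benjamini-Hochberg adjustment at 0.05. Also run were DESeq2 1.42.0, limma 3.58.1 (voom), the likelihood-ratio test, other scaling, filters and peak links, a replicate block and leaving out each library. Steps were tested on simulated data. Every replicate pair differed by more than sampling noise (chi-square at least 1.95 per window). Sequences were read with pysam 0.24.0 from the RefSeq GRCm38.p6 genome. Named genes are the main stromal chains, the type IV, multiplexin, type VI and junction chains, the 5 lowest p-values in each direction for windows and peaks, the 3 highest and 3 lowest levels, and the lowest p-value of each list. The members and lists were chosen with earlier results of these data known. A sequence at a collagen locus is not reported here.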

Additional observations from a re-analysis of the deposited data

How the results depend on the processing

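The count of collagen windows past the threshold stayed at 0 under all alternatives run, and the main limits are the small number of pools, the shallow LacZ-shRNA replicates 1 and 2, and counts that cannot separate repeat copies. Scaling by library size alone gave median log2 fold changes of 0.094 over the collagen windows and 0.134 over the collagen locus peaks, but the medians of all windows and all peaks also shifted, to 0.046 and 0.136. Locus peaks past the threshold numbered 1 with library size alone (Col4a1, log2 fold change 0.927), 2 by the likelihood-ratio test (Col4a1 and Col23a1), and 0 to 2 when a library was left out: 2 without LacZ-shRNA replicate 3 (Col4a1 1.04, Col23a1 -0.85) and 1 without Yap-shRNA replicate 3 (Col23a1 -0.81). Over all peaks, these 4 fits called 229, 378, 447 and 192. Within 50 kb of the 5′ end, 1 of 98 peaks passed, at chr1:24611235-24616833, 23763 bp from Col19a1, with 81.99% of its 31-base words found in the mitochondrial genome. The lists gave 0 to 2 calls, the 2 being Fn1 (0.47) and Atp2a1 (-0.38) without LacZ-shRNA replicate 1, a fit that called 157 of all windows against 11. Levels moved to a fibrillar median of 7.40 and a type IV median of 2.95 CPM per kb in the Yap-shRNA samples, and to a type IV median of 2.09 over whole windows. Signs turned for Col19a1 with library size alone (0.012). When a library was left out, values that turned sign ran from -0.053 to 0.090 for Col5a1, -0.266 to 0.0224 for Col6a2, -0.0125 to 0.125 for Col18a1, -0.0187 to 0.216 for Col13a1, -0.176 to 0.0643 for Col19a1, -0.258 to 0.0660 for Col25a1, -0.235 to 0.0014 for Col4a6 and -0.373 to 0.246 for Col11a1. The cause of these changes was not tested. Of the single-gene and single-peak values under an alternative, 428 kept their sign and, where an adjusted p was given, their side of the threshold. Another 10 turned sign and 6 passed the threshold.

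The labels do not pair the samples by replicate number, and 3 pools per group are too few to show or exclude pairing. Correlations of deviations between same-numbered samples were 0.17, -0.17 and 0.086, and 3 of 6 samples correlated best with their own number. With the replicate block, 0 collagen windows and 0 locus peaks passed, with medians of 0.042 and 0.00096. DESeq2 gave no adjusted p for 38284 windows and 12597 peaks.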
